A study of Mus musculus with 12 samples.

Results

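The mRNAs of 10 enzyme genes of the glycolytic pathway were followed in 3 mouse cell lines. The genes were Hk1 and Hk2 (hexokinases), Pfkl and Pfkp (phosphofructokinases), Aldoa and Aldoc (aldolases), Eno1 and Eno2 (enolases), Pkm (pyruvate kinase) and Ldha (lactate dehydrogenase). They were chosen by name, as isoforms of these steps and with earlier results of these data known, out of the 25128 genes and unnamed targets that the arrays measured. Another 9 isozymes of the same steps are not among the 10 and are counted further below. Each of the 10 was found on the arrays as 1 transcript with 3 probes. RNA came from 4 separately grown plates each of AtT20, a line from a mouse pituitary tumor, BV2, a mouse microglial line, and N18, a mouse neuroblastoma line, with 1 single-color array per plate. All plates were grown in the same serum-containing medium and received no treatment, and the labels name no other difference between the groups than the line. The study describes its BV2 culture as one meant to keep the cells at rest, not activated. Each line is an immortalized culture and serves as a model of 1 cell type, and no clone, passage or slide was named for a plate. Arrays of this kind hold 4 samples per slide, and how the plates were laid out on slides is not known here, so a slide and a line cannot be told apart.

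Glycolysis splits glucose into pyruvate, with hexokinase, phosphofructokinase and pyruvate kinase as the steps that control its flow. Most steps have several enzymes that are encoded by separate genes, and tissues differ in which of them they use. In brain, neurons are known for Eno2, also called neuron-specific enolase, which replaces Eno1 as neurons mature. Immune cells such as microglia raise glycolysis on activation, and tumor lines of many origins run it at a high rate and turn much of the pyruvate into lactate through Ldha.

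The level of a gene here is a log2 intensity: the log2 of the mean brightness of its 3 probes, after quantile normalization had given all 12 arrays the same distribution. Before that step the AtT20-labelled arrays had median intensities between 10.85 and 11.50, against 9.90 to 10.28 for BV2 and 10.10 to 10.54 for N18, and interquartile ranges of 0.38 to 0.78, 1.28 to 1.73 and 1.91 to 2.21. The plates labelled AtT20 were thus brighter at the median and held less contrast between probes. The highest value an array can hold is 16. Between 28 and 72 probes reached that limit on a plate labelled AtT20, 7 to 44 on an N18 plate and none on a BV2 plate. A gene was taken as detected in a line when its mean level over 4 plates, before normalization and relative to 10 seminal proteins that the study used as a blank, lay above 2 SD of those proteins, a threshold of 0.37 ± 0.11, 0.56 ± 0.15 and 0.74 ± 0.10 (mean ± SD over the 4 plates) in AtT20, BV2 and N18. By that measure 35.0%, 53.3% and 55.4% of the 25128 genes and targets were detected.

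The labels were set against genes that define each cell type. Of 9 microglia genes with a probe set, 8 were detected in BV2 (mean level 3.43 to 4.03 over the plates) and 2 in N18 (0.28 to 0.39). Of 10 neuroblast genes, 9 were detected in N18 (2.79 to 3.12) and 6 in BV2 (0.61 to 0.80), and of 7 fibroblast genes, 4 in N18 (0.96 to 1.22) and 3 in BV2 (0.34 to 0.49). Of 8 corticotroph genes, 1 (Pitx1) was detected on the plates labelled AtT20, where Pomc, the hormone gene that defines the corticotroph, Tbx19 and Pcsk1 were all below the threshold. Of the same 8 genes, 4 were detected in N18 and 2 in BV2, which were Pomc (level 0.67) and Tbx19 (1.43). The mean level of the corticotroph list ran from 0.06 to 0.18 over the plates labelled AtT20, from 0.19 to 0.21 on BV2 and from 0.93 to 1.05 on N18. On the plates labelled AtT20, the mean level of the neuroblast list was 0.91 to 1.68 with 6 of 10 genes detected, that of the fibroblast list 0.37 to 0.98 with 4 of 7, and that of the microglia list -0.05 to 0.09 with 1 of 9. The part of this in the differences below was not tested. The name AtT20 is used for these plates as their label.

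All 10 enzyme genes were detected in N18, 9 in BV2 and 6 on the plates labelled AtT20. Pfkp was the gene not detected in BV2. Hk2, Pfkl, Pfkp and Eno2 were not detected in AtT20. Counted by single probes, 28 of 30 lay above the threshold in N18, 27 in BV2 and 15 in AtT20. For a gene not detected in a line, its difference from that line is a bound: it is given as at least so many fold over the threshold, as the smallest of the bounds with and without normalization and relative to the seminal proteins.

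N18 and BV2 were compared first, as the neuronal and the microglial model. N18 carried more mRNA for Eno2, Hk1 and Pfkl, and BV2 carried more for Hk2 and Aldoc. The Hk2 and Aldoc calls were lost without normalization and relative to the seminal proteins, and the Pfkl call with the median of its probes. The mRNAs for Aldoa, Pkm and Ldha, which lie among the brightest signals of both lines, did not pass the test. RNA was measured in bulk, so that more cells with an mRNA and more of it per cell cannot be told apart. Of the 10 genes, 4 were higher in N18, 3 were lower and 3 had no call at an adjusted p under 0.05 (limma, Benjamini-Hochberg over all 25128 genes and targets). Across all genes and targets 40.9% were called in this comparison, 19.0% higher and 21.9% lower. The median difference of the 10 genes was -0.17 on the log2 scale, beside -0.06 for all genes. The plates of both lines did not overlap for 9 of the 10 genes, beside 55.4% of all genes, and a called difference of at least 1 was seen for 1 gene, Eno2, beside 9.83% of all genes.

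**Figure D1:**
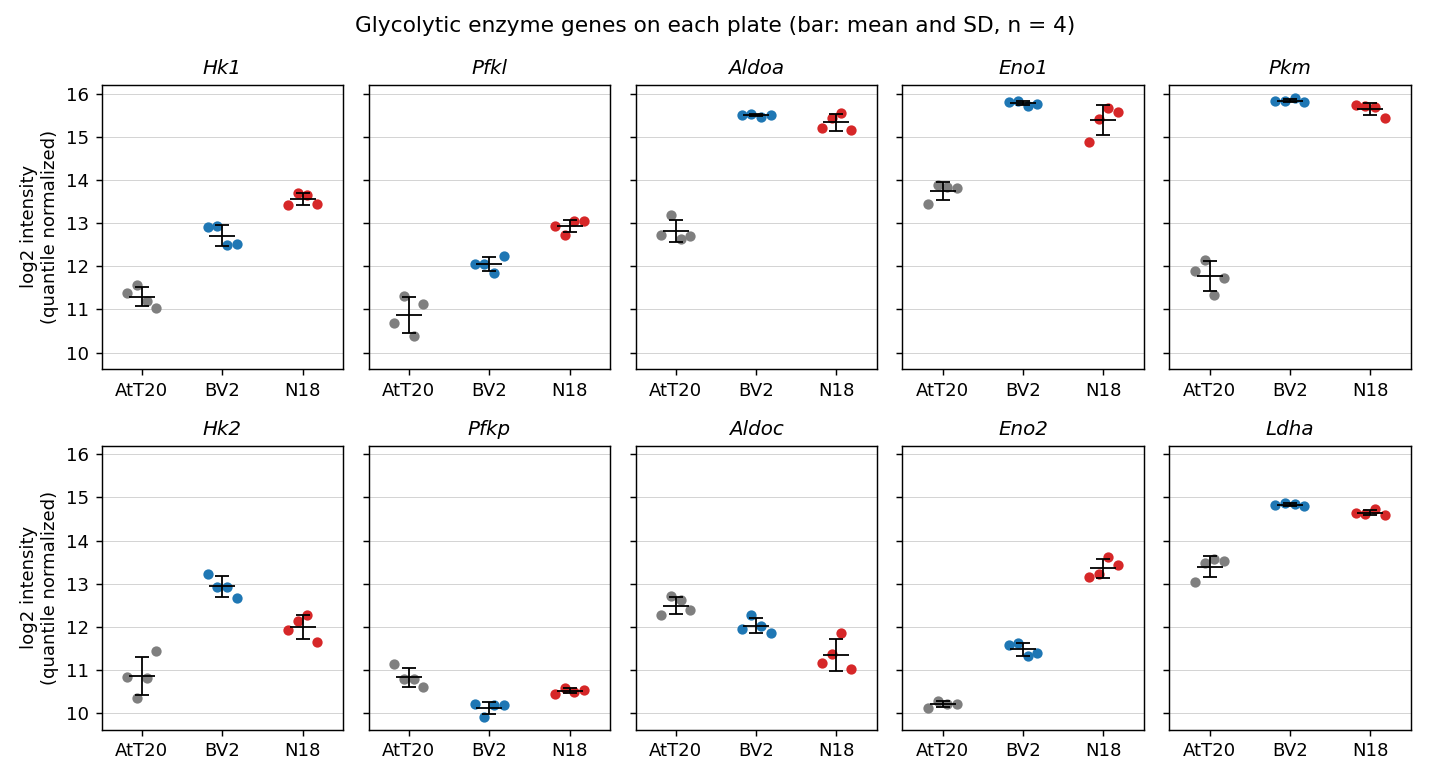
Log2 intensity (y axis, quantile normalized) of the 10 enzyme genes on each plate of the lines labelled AtT20, BV2 and N18 (x axis), with 1 point per plate and bars for the mean and SD of 4 plates. Eno2 and Hk1 step up from AtT20 to BV2 to N18, Hk2 is highest in BV2, and Aldoa, Eno1, Pkm and Ldha are high and close together in BV2 and N18.

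Eno2, the enolase of neurons, differed most of the 10 genes between N18 and BV2. Its level was 13.16, 13.22, 13.63 and 13.43 on N18 plates 1 to 4, and 11.58, 11.63, 11.33 and 11.39 on the BV2 plates. On the plates labelled AtT20 it was 10.12, 10.29, 10.23 and 10.23. After normalization the lines did not overlap, in the order N18, BV2, AtT20, with Eno2 below the threshold in AtT20. Without normalization the difference of BV2 from AtT20 was 0.34 and not called (adjusted p = 0.153, limma). N18 exceeded BV2 by 1.88 ± 0.12 (difference ± SE, n = 4 plates per line; adjusted p = 2.58e-09, limma), a 3.68-fold higher signal. The 3 probes of Eno2 all showed it, by 0.94 to 2.25. Eno2 was above the threshold on all 4 BV2 plates too, so its mRNA was measured in the microglial line and not in N18 alone.

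Eno1, the enolase of most tissues, went the other way by a small amount that did not hold. Its level was 14.88, 15.41, 15.66 and 15.57 on N18 plates 1 to 4, and 15.80, 15.83, 15.71 and 15.76 on the BV2 plates. N18 was lower by 0.40 (SE 0.14, adjusted p = 0.0335, limma), whereas the difference was 0.00 without normalization and 0.03 relative to the seminal proteins. Plate 1 of N18 lay below the rest, and 1 of the 3 Eno1 probes read 8.61 there before normalization and 15.61 to 15.88 on the other N18 plates. Without that probe the difference was -0.24 (adjusted p = 0.0674, limma), and without plate 1 of N18 it was -0.24 (adjusted p = 0.112). Leaving out any of the 4 BV2 plates (-0.41 to -0.37) or plate 2 of N18 (-0.41) also ended the call. A near-identical copy of Eno1 exists in the mouse genome, and these probes may not tell the copies apart.

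The hexokinases, which trap glucose in the cell as glucose 6-phosphate, moved in opposite directions. Hk1, the form that prevails in brain, was at 13.43, 13.71, 13.65 and 13.45 on the N18 plates and at 12.90, 12.93, 12.48 and 12.52 on the BV2 plates. Hk2, the inducible form of muscle, fat and many tumors, was at 11.93, 12.14, 12.27 and 11.66 on the N18 plates and at 13.24, 12.93, 12.92 and 12.67 on the BV2 plates. Neither gene's plates overlapped between these lines. Hk1 was higher in N18 by 0.85 ± 0.14 (adjusted p = 0.000151, limma), with its probes at 0.76 to 0.99. Hk2 was lower in N18 by 0.94 (SE 0.20, adjusted p = 0.00108, limma), with probes at -1.07 to -0.31. The Hk2 difference kept its sign without normalization, at -0.34, but was not called there (adjusted p = 0.253).

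Phosphofructokinase commits the sugar to glycolysis. Pfkl, the liver form, was at 12.92, 12.73, 13.05 and 13.04 on the N18 plates and at 12.05, 12.06, 11.85 and 12.23 on the BV2 plates. The lines were apart on every plate, by 0.89 ± 0.17 (adjusted p = 0.000523, limma). Most of the Pfkl signal came from 1 of its 3 probes, which averaged 14.26 in N18 and 13.22 in BV2, and with the median of the probes the difference was 0.34 (adjusted p = 0.0799). Pfkp, the platelet form, was at 10.46, 10.59, 10.51 and 10.54 in N18 and, below the threshold, at 10.21, 9.92, 10.19 and 10.18 in BV2. Its difference of 0.40 ± 0.11 passed the test (adjusted p = 0.00878, limma) but gave no fold above 1 once BV2 was set at its threshold.

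Aldolase cuts the hexose into triose phosphates. Aldoa, the form of muscle and of most dividing cells, was at 15.20, 15.43, 15.56 and 15.14 in N18 and at 15.50, 15.52, 15.47 and 15.51 in BV2. Its plates overlapped, and the difference of -0.16 (95% interval -0.42 to 0.10) had an adjusted p of 0.311 in limma. Its sign turned with the scaling, at 0.35 without normalization and 0.38 relative to the seminal proteins, neither called. Aldoc, the brain form, was at 11.17, 11.38, 11.86 and 11.02 in N18 and at 11.96, 12.28, 12.03 and 11.87 in BV2. It was lower in N18 by 0.68 (SE 0.17, adjusted p = 0.00368, limma), with all 3 probes lower. The highest N18 plate, 11.86, lay just under the lowest BV2 plate, 11.87, and without normalization the difference was -0.21 and not called (adjusted p = 0.516).

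Pkm makes pyruvate and ATP in the last step of the pathway, and Ldha turns pyruvate into lactate. Pkm was at 15.74, 15.72, 15.69 and 15.43 in N18 and at 15.82, 15.82, 15.90 and 15.81 in BV2. Ldha was at 14.63, 14.62, 14.74 and 14.61 in N18 and at 14.82, 14.88, 14.85 and 14.81 in BV2. Neither gene overlapped between the lines, but neither passed the test in the fit over 12 arrays. The difference was -0.19 for Pkm (95% interval -0.48 to 0.10, adjusted p = 0.287, limma) and -0.19 for Ldha (-0.42 to 0.04, adjusted p = 0.191). In a fit to the 8 arrays of these lines alone both were called, Pkm at -0.22 (adjusted p = 0.0207) and Ldha at -0.16 (adjusted p = 0.0451), and Ldha also with the mean of log2 probes (-0.29, adjusted p = 0.0326). The signs turned with the scaling, without a call: Pkm was at 0.11 without normalization and 0.14 relative to the seminal proteins, and Ldha at 0.40 and 0.43. The signal of Pkm, Eno1 and Aldoa sat close to the limit of 16 in BV2 and N18, and 2 Pkm probes reached it on 1 array each. The splice forms of Pkm are not separated by these probes as the files name them.

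**Figure D2:**
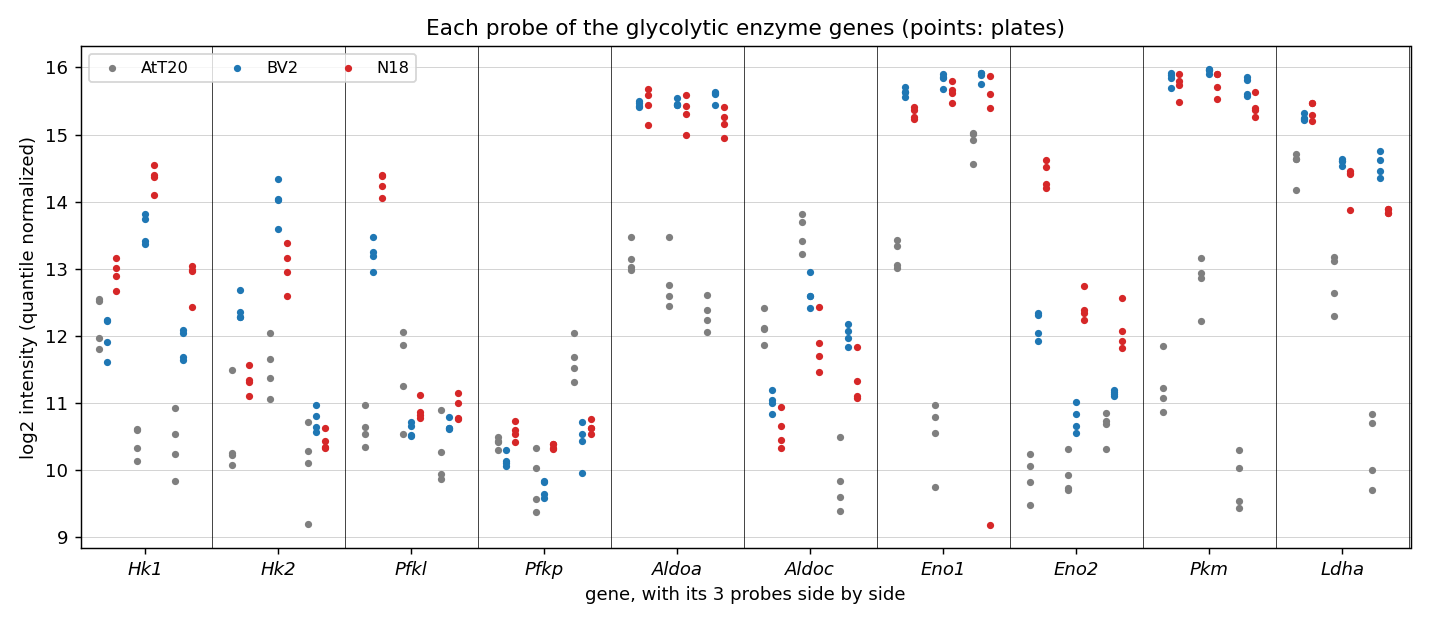
Log2 intensity (y axis, quantile normalized) of each of the 3 probes of the 10 enzyme genes (x axis), with 1 point per plate in the color of its line. The probes of Aldoa, Eno1 and Pkm lie together near 16 in BV2 and N18 and far apart on the plates labelled AtT20 for Eno1, Pkm and Ldha, and 1 Eno1 spot of N18 lies at 9.17.

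The sequence just before a gene's start is where factors that set its transcription bind, and glycolytic promoters are known for ACGTG, a core of the hypoxia response element, and the E-box CACGTG. The windows of 250 bases before each RefSeq start (build GRCm38.p6) were searched for both, on both strands, with the letters as written and with every CACGTG also counted as an ACGTG on each strand. All 10 genes matched, with 18 windows. ACGTG was found in 5 windows of 4 genes (Hk2, Aldoa, Pkm and Ldha), beside 16.6% of the 32851 windows of all genes, and CACGTG in 1 window, of Ldha, beside 6.02%. The Aldoa windows among the 5 overlap each other and hold the same match. Shown are 1 window for each gene with a match, and that of Eno2, the one of the 10 genes that differed most between N18 and BV2, which has none. Capitals mark ACGTG or its complement CACGT, and CACGTG where both overlap. Each is written on the strand of its gene from 5′ to 3′. The windows are chr6:82774455-82774704 (minus strand), chr7:126799255-126799504 (minus), chr9:59656977-59657226 (plus), chr7:46845554-46845803 (plus) and chr6:124769674-124769923 (minus).
Hk2: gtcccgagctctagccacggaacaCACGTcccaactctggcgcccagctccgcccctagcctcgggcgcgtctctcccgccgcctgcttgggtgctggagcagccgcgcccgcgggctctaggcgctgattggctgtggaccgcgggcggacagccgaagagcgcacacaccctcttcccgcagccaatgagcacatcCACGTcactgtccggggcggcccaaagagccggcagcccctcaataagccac
Aldoa: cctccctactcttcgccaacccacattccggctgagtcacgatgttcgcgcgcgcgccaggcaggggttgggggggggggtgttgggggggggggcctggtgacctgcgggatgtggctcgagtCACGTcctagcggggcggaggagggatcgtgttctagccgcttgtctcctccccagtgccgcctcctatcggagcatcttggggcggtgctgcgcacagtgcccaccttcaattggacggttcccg
Pkm: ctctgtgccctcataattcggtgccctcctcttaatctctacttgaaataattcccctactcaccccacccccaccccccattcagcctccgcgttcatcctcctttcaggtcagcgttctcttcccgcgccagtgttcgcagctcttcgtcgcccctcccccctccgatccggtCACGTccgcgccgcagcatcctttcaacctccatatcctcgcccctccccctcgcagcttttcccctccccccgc
Ldha: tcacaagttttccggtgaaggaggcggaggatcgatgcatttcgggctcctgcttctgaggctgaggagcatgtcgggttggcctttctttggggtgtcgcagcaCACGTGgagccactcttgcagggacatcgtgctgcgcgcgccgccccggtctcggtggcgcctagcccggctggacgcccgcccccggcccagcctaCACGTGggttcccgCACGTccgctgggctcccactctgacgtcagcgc
Eno2: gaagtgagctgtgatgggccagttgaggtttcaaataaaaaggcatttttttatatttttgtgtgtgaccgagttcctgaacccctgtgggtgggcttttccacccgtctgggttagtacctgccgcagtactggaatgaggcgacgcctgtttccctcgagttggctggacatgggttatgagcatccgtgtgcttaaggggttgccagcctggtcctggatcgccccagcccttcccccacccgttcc
The Ldha window held 5 matches of ACGTG and 2 of CACGTG, that of Hk2 held 2 of ACGTG, and those of Aldoa and Pkm 1 each. A match describes the letters of the window and was not tied to any level on the arrays.

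The choice between isoforms was then set out as the difference of both log2 levels on the same array, which cancels the brightness of that array. Probes of different genes differ in strength, so the size of this value says nothing of which mRNA is more abundant in a line, and it is read only between lines. There were 4 isoform pairs and 3 comparisons of lines, each tested by a two-sided exact permutation test of 4 plates against 4, for which 0.0286 is the smallest p. After adjustment over the 12 comparisons 11 had an adjusted p of 0.0312. With so high a smallest p, a single comparison passes only when many of the 12 reach it, those against AtT20 among them. The shared 0.0312 therefore does not rank the pairs. All 4 pairs passed between N18 and BV2, of which Pfkl minus Pfkp and Aldoa minus Aldoc lost the call under other settings.

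**Figure D3:**
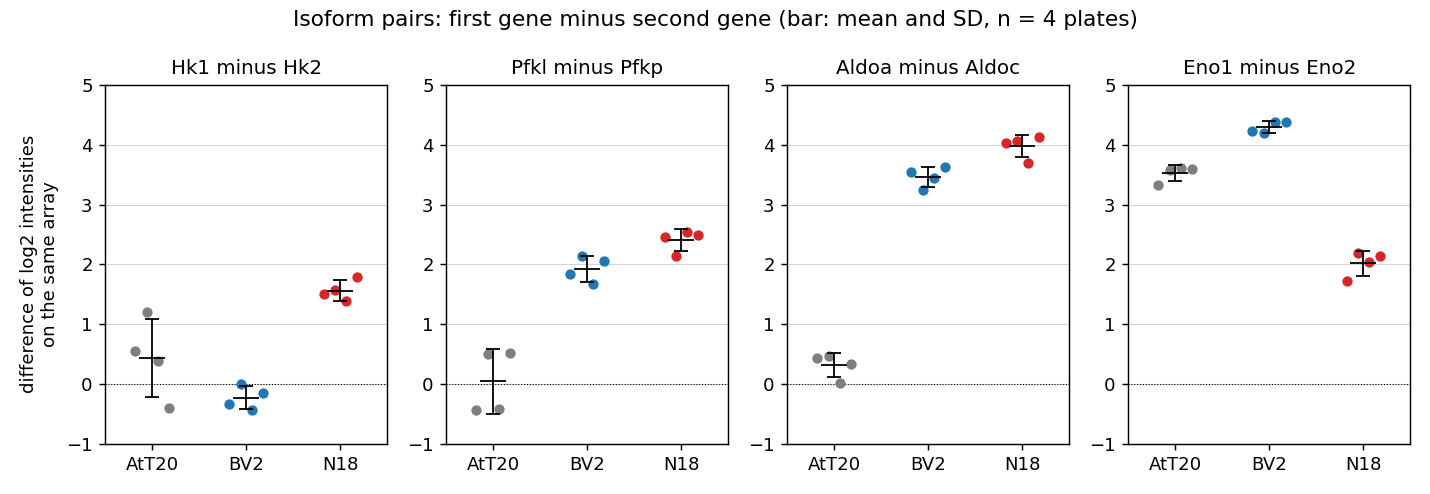
Difference of the log2 intensities of both isoforms on the same array (y axis) in the lines labelled AtT20, BV2 and N18 (x axis), with 1 point per plate and bars for the mean and SD of 4 plates. Eno1 minus Eno2 is lowest in N18, at 2.02, and Hk1 minus Hk2 is highest there, at 1.56.

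The enolases showed the widest shift between N18 and BV2. Eno1 minus Eno2 was 1.72, 2.19, 2.03 and 2.13 on the N18 plates and 4.22, 4.20, 4.38 and 4.38 on the BV2 plates. The means were 2.02 ± 0.21 and 4.29 ± 0.10 (SD, n = 4), and the difference of -2.28 passed the exact permutation test (adjusted p = 0.0312). The ratio of Eno1 to Eno2 signal was thus 4.84 times lower in N18. All 9 pairs of 1 Eno1 probe with 1 Eno2 probe gave that direction, from -4.10 to -1.13. On the plates labelled AtT20 the value was 3.32, 3.58, 3.60 and 3.59, between the other lines, with Eno2 below the threshold. Against AtT20, N18 was lower by 1.51 and BV2 higher by 0.77, but 5 of 9 probe pairs gave the first direction, and without the Eno1 probe with the low spot the first difference was -0.079 (adjusted p = 0.514, exact permutation test) and the second 2.04. With normexp background correction the second was 0.19 and not called (adjusted p = 0.103, exact permutation test).

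The hexokinases came next. Hk1 minus Hk2 was 1.50, 1.57, 1.38 and 1.79 on the N18 plates and -0.34, 0.01, -0.44 and -0.15 on the BV2 plates. The means were 1.56 ± 0.17 and -0.23 ± 0.20, and the ratio of Hk1 to Hk2 signal was 3.46 times higher in N18 (difference 1.79, adjusted p = 0.0312, exact permutation test), with all 9 probe pairs in that direction. The plates labelled AtT20 spread from -0.40 to 1.20, where Hk2 was below the threshold, and overlapped the BV2 plates (difference of BV2 from AtT20 -0.66, adjusted p = 0.114, exact permutation test). N18 exceeded AtT20 by 1.13, with 7 of 9 probe pairs, and with normexp background correction that difference had an adjusted p of 0.103 in the exact permutation test.

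Pfkl minus Pfkp and Aldoa minus Aldoc differed less between N18 and BV2. Pfkl minus Pfkp was 2.41 ± 0.18 in N18 and 1.92 ± 0.21 in BV2 (difference 0.49, adjusted p = 0.0312, exact permutation test). That difference rested on how the probes were averaged: 5 of 9 probe pairs had its sign, and with the median probe it was -0.085 (adjusted p = 0.629). Pfkp was below the threshold in BV2, and both genes were so in AtT20, where their difference was 0.04 ± 0.54, lower than N18 and BV2 by 2.37 and 1.88 but by 0.30 and 0.38, without a call, with the median probe. Aldoa minus Aldoc was 3.98 ± 0.19 in N18 and 3.46 ± 0.17 in BV2 (difference 0.51, adjusted p = 0.0312, exact permutation test), with all 9 probe pairs in that direction and Aldoa close to the scanner limit in both lines, but without normalization an adjusted p of 0.0623. On the plates labelled AtT20 the aldolases stood apart. Aldoa minus Aldoc was 0.44, 0.47, 0.02 and 0.33 there. The ratio of Aldoa to Aldoc signal was 12.7 times higher in N18 and 8.88 times higher in BV2 (differences 3.66 and 3.15). All 9 probe pairs gave that direction in both, but the size varied widely, from 0.8 to 4.5 for N18 and from 0.1 to 4.4 for BV2.

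N18 was next set against the plates labelled AtT20. Of the 10 genes, 8 were higher in N18 and 2, Pfkp and Aldoc, were lower (limma, adjusted p under 0.05), with no plate overlapping for any of them. In this comparison 76.4% of all genes and targets were called, 27.8% higher and 48.6% lower, and 68.2% did not overlap. A called difference of at least 1 was seen for 9 members, beside 31.4% of all genes. The median difference was 1.85 for the 10 genes and -0.25 for all genes. The contrast of the arrays given above differed most between these lines, their medians differed as well, and the part of either in the differences was not tested.

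Pkm differed most, at 11.90, 12.14, 11.33 and 11.74 on the plates labelled AtT20, and N18 exceeded it by 3.87 ± 0.14 (adjusted p = 7.53e-13, limma). Eno2 followed at 3.14 ± 0.12 (adjusted p = 2.11e-12), and as it was below the threshold in AtT20 this is at least 4.2-fold. Aldoa was at 12.72, 13.19, 12.63 and 12.71 in AtT20 and 2.52 ± 0.12 higher in N18 (adjusted p = 2.44e-11). Every plate of N18 lay above every AtT20 plate for these genes. Hk1 was at 11.39, 11.56, 11.20 and 11.04 in AtT20, and N18 exceeded it by 2.26 ± 0.14 (adjusted p = 5.74e-10, limma). Hk1 passed the threshold on 2 of the AtT20 plates and with 1 of its 3 probes, and by that probe the difference was 0.73. Ldha was at 13.04, 13.48, 13.57 and 13.52 in AtT20, and N18 exceeded it by 1.25 ± 0.11 (adjusted p = 2.45e-08). These too were apart on every plate.

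Eno1 was at 13.44, 13.87, 13.83 and 13.82 on the plates labelled AtT20. N18 exceeded it by 1.64 ± 0.14 (adjusted p = 2.42e-08, limma), and by 3.07 without the probe with the low spot, which is the brightest Eno1 probe in AtT20. Pfkl, below the threshold, was at 10.70, 11.31, 10.39 and 11.13 in AtT20 and 2.06 ± 0.17 higher in N18 (adjusted p = 1.53e-08), at least 3.0-fold, but 0.41 higher with the median probe. Hk2, below the threshold as well, was at 10.84, 10.36, 10.82 and 11.44 in AtT20 and 1.14 ± 0.20 higher in N18 (adjusted p = 6.84e-05, limma), at least 1.5-fold. The N18 plates lay above the AtT20 plates for all of these genes.

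Aldoc, at 12.28, 12.72, 12.62 and 12.38 in AtT20, was lower in N18 by 1.14 (SE 0.17, adjusted p = 1.09e-05, limma), whereas relative to the seminal proteins it was higher by 0.60. Its 3 probes ran from -1.67 to 1.51, with 2 of them lower in N18. Pfkp, below the threshold in AtT20 at 11.13, 10.81, 10.80 and 10.61, was lower in N18 by 0.31 (SE 0.11, adjusted p = 0.0182, limma), but higher by 0.64 relative to the seminal proteins and by 0.11 with the median probe. Without plate 1 of N18 the Pfkp difference was -0.28 (adjusted p = 0.0532). Of the 30 probes, 25 were higher in N18 and 5 lower, and for 6 of the 10 genes all 3 probes ran the same way. The probes of 1 gene lay far apart on the plates labelled AtT20, from 10.51 to 14.87 for Eno1, 10.30 to 14.54 for Ldha, 9.82 to 12.79 for Pkm and 9.83 to 13.54 for Aldoc. The median gap between the lowest and highest probe of a gene was 1.82 in AtT20, 1.05 in BV2 and 1.50 in N18.

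BV2 against the plates labelled AtT20 also gave 8 genes higher and 2, Pfkp and Aldoc, lower, in a comparison that shares the AtT20 plates with the previous one. Here 73.6% of all genes and targets were called, 26.6% higher and 47.0% lower, and 62.6% did not overlap. A called difference of at least 1 was seen for 8 of the 10 genes, beside 28.3% of all genes, and the median was 1.42 for the 10 genes and -0.23 for all. Pkm was 4.06 ± 0.14 higher in BV2 (adjusted p = 4.33e-13, limma), Aldoa 2.69 ± 0.12 and Eno1 2.04 ± 0.14, which was 3.31 without the probe with the low spot. Hk2, which was highest in BV2, was 2.07 ± 0.20 above AtT20 (adjusted p = 8.62e-08), which is at least 2.5-fold. Ldha exceeded AtT20 by 1.44 ± 0.11 and Hk1 by 1.41 ± 0.14. By the 1 Hk1 probe above the threshold in AtT20 the difference was -0.21, with overlapping plates. Pfkl was at least 1.3-fold higher, though its difference of 1.17 was 0.07 with the median probe (adjusted p = 0.657, limma). Of the 30 probes 23 were higher in BV2 and 7 lower.

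Eno2 was 1.27 ± 0.12 higher in BV2 than in AtT20 after normalization (adjusted p = 1.11e-07, limma) but 0.34 without it (adjusted p = 0.153), and no fold above 1 followed once AtT20 was set at its threshold. Pfkp was lower in BV2 by 0.71, with the gene below the threshold in both lines. Aldoc was lower in BV2 by 0.46 (SE 0.17, adjusted p = 0.0195, limma), but higher by 0.78 relative to the seminal proteins and by 0.06 with the mean of log2 probes, and its 3 probes ran from -1.10 to 2.18. Without plate 2 of AtT20 it was -0.38 (adjusted p = 0.0724) and without plate 4 of BV2 -0.41 (adjusted p = 0.0571).

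Around these enzymes, 50 other genes of glucose use were followed: other isozymes of the same steps, enzymes of the other steps, regulators of phosphofructokinase, carriers of glucose and lactate, and genes that decide the fate of pyruvate. Between N18 and BV2, 8 of the 50 were higher in N18, 11 were lower and 31 had no call, with a median of -0.06. Across all genes and targets 19.0% were called higher and 21.9% lower. Against AtT20, 14 were higher in N18 and 21 lower (median -0.24), and 16 were higher in BV2 and 20 lower (median -0.17). Of all genes and targets, 27.8% were called higher and 48.6% lower in N18, and 26.6% and 47.0% in BV2. The counts of the 50 thus lay near the shares over all genes. The 9 enzymes of the other steps had medians of 0.01, 1.42 and 1.08 in the 3 comparisons. Against AtT20 they too lay mostly on the higher side. There 6 of 9 were called higher in each line, beside 27.8% of all genes for N18 and 26.6% for BV2.

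**Figure D4:**
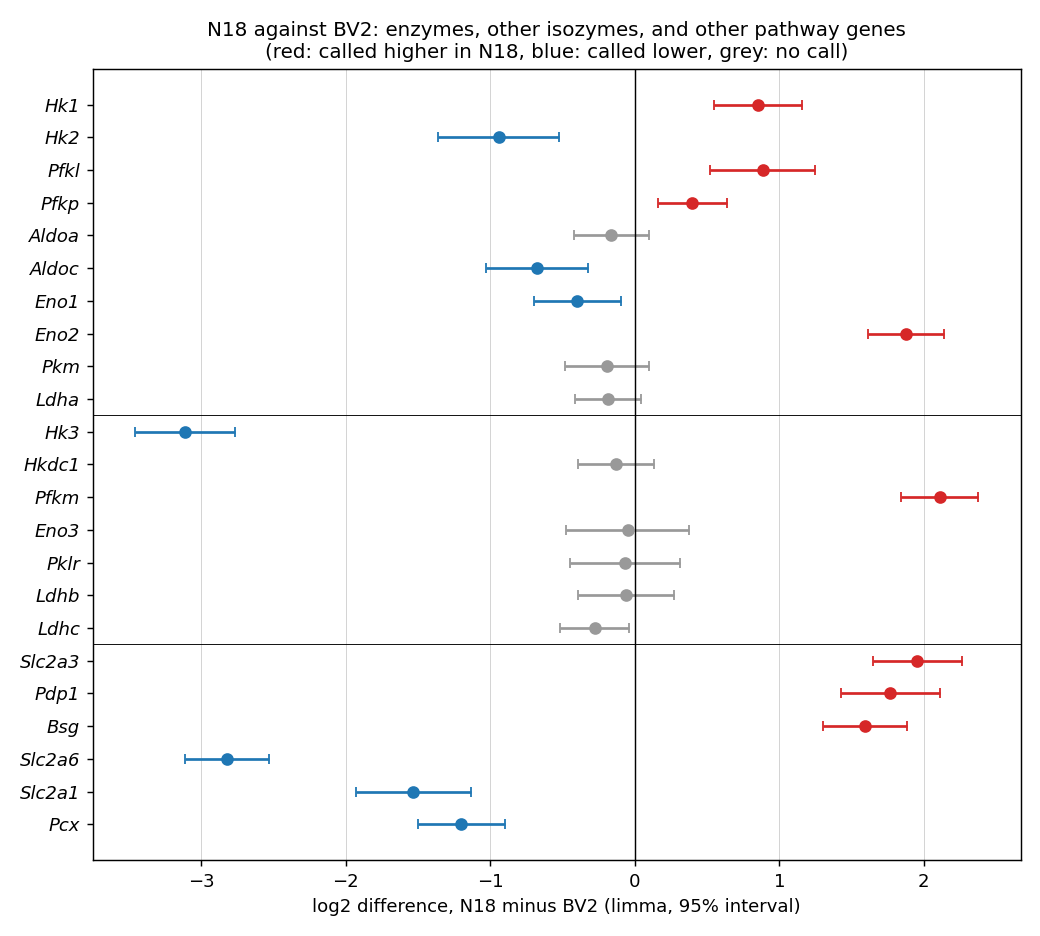
Log2 difference of N18 from BV2 (x axis) with the 95% interval from limma for the 10 enzyme genes (top), other isozymes of the same steps that the text names (middle) and further genes of the pathway (bottom), with red for genes called higher in N18, blue for lower and grey for no call. Hk3 at -3.11 and Slc2a6 at -2.82 lie farthest to the left and Pfkm at 2.11 farthest to the right, and Eno1, in blue, is at 0.00 without normalization and 0.03 relative to the seminal proteins.

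Among the isozymes outside the 10, a hexokinase and a phosphofructokinase differed between N18 and BV2. Hk3, a hexokinase of myeloid blood cells, ran from 13.83 to 14.10 in BV2 and from 10.75 to 11.01 in N18, lower in N18 by 3.11 (SE 0.16, adjusted p = 1.47e-10, limma). Pfkm, the muscle phosphofructokinase, was 13.95 to 14.15 in N18 and 11.78 to 12.21 in BV2, higher in N18 by 2.11 ± 0.13 (adjusted p = 7.47e-10). On the plates labelled AtT20 Pfkm was 13.21 to 13.69 and detected, where Pfkl and Pfkp were not. Hkdc1, Eno3, Pklr, Ldhb and Ldhc had no call between N18 and BV2 in the fit over 12 arrays. Their differences ran from -0.28 for Ldhc (adjusted p = 0.0604) to -0.05 for Eno3 (adjusted p = 0.869), which was called at 0.55 without normalization (adjusted p = 0.0381) and 0.58 relative to the seminal proteins (adjusted p = 0.0194). Pklr, set against the seminal proteins, was called at 0.47 (adjusted p = 0.0186). In the fit to the 8 arrays of N18 and BV2 alone Hkdc1 (-0.22, adjusted p = 0.0331) and Ldhc (-0.39, adjusted p = 0.0183) were called. Hkdc1, Ldhb and Ldhc were below the threshold in both lines.

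Among the enzymes of the other steps, Gapdh, often used as a reference gene, did not pass the test between N18 and BV2 (0.08 ± 0.10, adjusted p = 0.567, limma; 0.52 and called without normalization, adjusted p = 0.0303) and was higher than AtT20 by 1.83 ± 0.10 in N18 and 1.75 ± 0.10 in BV2. Gpi1, the isomerase between hexokinase and phosphofructokinase, was below the threshold in AtT20 and at least 14.5-fold higher in N18 and 12.9-fold higher in BV2. Pgam1, the mutase ahead of enolase, exceeded AtT20 by 3.75 ± 0.14 in BV2 (adjusted p = 1.1e-12).

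The carriers split between the lines. Slc2a3, the glucose transporter of neurons, was higher in N18 than in BV2 by 1.96 ± 0.15 (adjusted p = 1.32e-08, limma) and at least 8.0-fold above AtT20. Slc2a1, the basal glucose transporter, was lower in N18 than in BV2 by 1.53 (SE 0.19, adjusted p = 4.89e-06), but its difference set against the seminal proteins, -0.77, was not called (adjusted p = 0.0514). Slc2a6, found in leukocytes, was lower in N18 than in BV2, with a difference of -2.82 (SE 0.14, adjusted p = 5.02e-11), and at least 4.3-fold higher in BV2 than in AtT20. Pdp1, a phosphatase that activates pyruvate dehydrogenase, was at least 3.1-fold higher in N18 than in BV2, and Pcx, pyruvate carboxylase, was lower in N18 by 1.20 (SE 0.14). Bsg, the partner of the lactate carriers, was higher in N18 than in BV2 by 1.59, but by 0.19 (adjusted p = 0.14) without the probes at the scanner limit, and against AtT20 it was higher in N18 by 3.01, but lower by 0.98 without them.

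The plates labelled AtT20 in turn had more mRNA for the lactate carriers Slc16a8 and Slc16a1, neither of which was detected in N18 or BV2. Slc16a8 was at least 1.6-fold above N18 and 1.8-fold above BV2, and Slc16a1 at least 1.5-fold and 1.7-fold. Slc16a3, a lactate carrier as well, went the other way. Relative to the seminal proteins it was detected in N18 (4.38) and BV2 (2.79), and not on the plates labelled AtT20 (0.21). Pfkfb1, a liver and muscle regulator of phosphofructokinase, was detected in AtT20 and called lower in N18 and BV2 (limma), but was below the threshold in both and gave no fold clearly above 1 once they were set at their thresholds.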

How the data were processed

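Cy3-labelled cDNA from total RNA of 4 plates per line (AtT20, BV2 and N18) was hybridized to 12 single-color NimbleGen mouse arrays. As deposited, the files hold 72000 probe intensities per array, which the authors transformed into log2 format. The values show no background subtraction and no scaling of arrays to each other. HEK293 cells, which were measured on human arrays, are not analysed here.

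Probe names gave 25631 targets, of which 69.4% were given a symbol from a RefSeq table (GRCm38.p6, names only, since the arrays were designed on another build). For each gene the linear probe values were averaged and returned to log2, and targets of 1 symbol were pooled, which left 25128 genes and unnamed targets. Probe values were quantile normalized over the 12 arrays, and differences between lines were fitted in limma (version 3.58.1 under R 4.3.3, functions lmFit and eBayes, trend on). A call is a Benjamini-Hochberg adjusted p under 0.05 over all 25128. Isoform pairs were compared by two-sided exact permutation tests (scipy 1.17.1), adjusted over 12. A bound is the smallest over 3 scalings. Replicates are biological replicates as labelled. The limma p values rest on 1 spread between plates per gene, pooled over all 3 lines and drawn towards that of genes of like level. The permutation p values rest on the 4 plates of each of the lines compared. Replicate numbers were not taken as pairs: residuals of plates with the same number correlated from -0.11 to 0.32, with 3 of 12 above 0.1. Precision is limited by the number of arrays (4 a line) and by signal over background.

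The named genes are the 10 enzymes, the other isozymes of their steps, Gapdh, Slc16a3 and marker genes. Added to these, per comparison, are the 3 pathway genes with the largest called difference in each direction whose plates do not overlap. A few genes of these lists are counted but not reported singly. The members and lists were chosen with earlier results of these data known. Both steps were also run on simulated data. For limma these were drawn around the same mean in all lines, apart from a set of changed genes. They did not hold the difference in array contrast, so they cannot measure its effect on the calls. Promoter windows come from RefSeq. Other steps used Python 3.11.15, numpy 2.4.6, pandas 2.3.3 and matplotlib 3.10.9.

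The alternatives changed the scaling (none, or relative to the seminal proteins), the summary of probes (mean or median of log2 values), the background (normexp, offset 50), the probes (none at the scanner limit), the genes (detected ones alone), the call (a log2 difference of 1 or more), the model (with a replicate block, or fitted to the 8 arrays of both lines) and the plates (each left out in turn). Leaving out the Eno1 probe with a low spot and the range over probe pairs were chosen after seeing the data.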

Additional observations from a re-analysis of the deposited data

Results flagged for a closer look

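In 6 of 42 groups of 4 plates, 1 plate lay farther from the other plates than Dixon's test allows at the 95% level, where chance flags about 1 in 20 groups. Pfkp was 9.92 on plate 2 of BV2, where it was below the threshold, and 10.18 to 10.21 on the other BV2 plates. Aldoa was 13.19 on plate 2 labelled AtT20 and 12.63 to 12.72 on the others. On plate 1 labelled AtT20, Eno1 was 13.44 beside 13.82 to 13.87, Ldha was 13.04 beside 13.48 to 13.57, and Eno1 minus Eno2 was 3.32 beside 3.58 to 3.60. Pkm was 15.43 on plate 4 of N18 and 15.69 to 15.74 on the others.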

How the results depend on the processing

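The differences of Eno2 and Hk1 between N18 and BV2 were called under every alternative except, for Hk1, a difference of at least 1. The lower calls moved with the scaling. In place of 3 enzymes lower in N18 than in BV2, there were 0 without normalization, 0 relative to the seminal proteins and 0 at a difference of at least 1 (4 higher became 1), and 5 were lower with the 8 arrays alone. The 2 genes lower against AtT20 became 0 in both comparisons relative to the seminal proteins, 1 with the mean or median of log2 probes, and 1 in N18 and 0 in BV2 at a difference of at least 1. Leaving out a plate gave 2 to 3 enzymes lower in N18 than in BV2, and 1 to 2 lower than AtT20 in N18 (1 without N18 plate 1) and in BV2 (1 without AtT20 plate 2 or BV2 plate 4). Of the 50 other genes, those higher numbered 16, 32 and 27 relative to the seminal proteins for N18 against BV2, N18 against AtT20 and BV2 against AtT20, and those lower 6, 6 and 7. Without normalization 6 were lower in N18 than in BV2 and 31 lower in BV2 than in AtT20, and at a difference of at least 1 the lower ones were 4, 12 and 10. The median of all genes moved from -0.06, -0.25 and -0.23 to 0.15, -0.85 and -1.08 without normalization and to 0.18, 0.54 and 0.28 relative to the seminal proteins, and the share of calls that were higher from 46.5%, 36.4% and 36.2% to 80.2%, 24% and 13.5% and to 74.7%, 78.8% and 74.2%. The cause was not tested.

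Single genes changed sign, called in at least 1 of the settings compared, as follows. Relative to the seminal proteins, N18 minus BV2 was 0.031 for Eno1, 0.58 for Eno3 and 0.47 for Pklr; N18 minus AtT20 was 0.64 for Pfkp, 0.60 for Aldoc, 1.02 for Hk3, 1.41 for Pklr, 0.41 for Ldhb and 0.12 for Ldhc; and BV2 minus AtT20 was 0.78 for Aldoc, 0.24 for Ldhb and 0.27 for Ldhc. Ldhb and Ldhc were below the threshold in every line. Without normalization N18 minus BV2 was 0.0015 for Eno1 and 0.55 for Eno3. With the median probe N18 minus AtT20 was 0.11 for Pfkp and 0.59 for Pklr, with the mean of log2 probes BV2 minus AtT20 was 0.059 for Aldoc, and without probes at the limit N18 minus AtT20 was -0.98 for Bsg. Among the 10 enzymes, the uncalled N18 minus BV2 values of Aldoa, Pkm and Ldha also turned positive, to 0.35, 0.11 and 0.40 without normalization and 0.38, 0.14 and 0.43 relative to the seminal proteins, again uncalled.

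Of the isoform pairs, Pfkl minus Pfkp for N18 against BV2 was 0.10 with the mean of log2 probes (adjusted p = 0.499), -0.085 with the median (0.629) and 0.30 with normexp (0.229), all by exact permutation test. With the median probe it was 0.30 for N18 and 0.38 for BV2 against AtT20, neither called. Aldoa minus Aldoc for N18 against BV2 was 0.56 without normalization (0.0623). Eno1 minus Eno2 for N18 against AtT20 was -0.70 with the mean of log2 probes, -0.12 with the median and -0.079 without the low-spot probe, and for BV2 against AtT20 0.19 with normexp. Hk1 minus Hk2 for N18 against AtT20 was 1.13 with normexp (0.103). The replicate block left 4779 genes higher and 5329 lower in N18 than in BV2 (4775 and 5495 without it). The 1 named gene whose call it changed was Ldhc (-0.28, adjusted p = 0.0499, limma), which was below the threshold in both lines.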
